A study of Arabidopsis thaliana with 6 samples.

Results

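The vascular cambium of Arabidopsis thaliana is the ring of dividing cells in the stem that makes xylem to the inside and phloem to the outside. A set of 10 genes known to control it was taken by locus identifier from a deposited table of 34484 identifiers, and all 10 were present. They are the ligand genes CLE41 (AT3G24770) and CLE44 (AT4G13195), the receptor kinase genes PXY (AT5G61480) and MOL1 (AT5G51350), and 6 transcription factor genes. The last are WOX4 (AT1G46480), WOX14 (AT1G20700), HB8 (AT4G32880), ATHB15 (AT1G52150), ANT (AT4G37750) and LBD4 (AT1G31320). The libraries were made from total RNA of the main stem, labelled mature stem at 42 days after flowering, of plants carrying a mutation in γVPE and of wild type plants raised at 20 °C under a photoperiod of 16 h (8 h of night). The titles give 3 libraries as the mutant and 3 titled as wild type. The deposited columns are named WT_V and WT, and WT_V was taken as the mutant only because WT matches the wild type titles. The sources used here give no allele, no ecotype and nothing on pooling of plants.

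In stems, CLE41 and CLE44 are expressed in the phloem, and both give rise to the peptide known as TDIF. TDIF binds PXY on cambium cells, which holds back xylem differentiation and, through WOX4 and WOX14, keeps the cambium dividing. Homeodomain-leucine zipper class III proteins such as HB8 and ATHB15 act in vascular patterning and are held in place by the microRNAs miR165 and miR166.

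The ligand genes are shown first by the coding bases of the longest run of residues that CLE41 and CLE44 share, 13 residues at the end of each precursor, which holds the TDIF peptide. CLE42, which encodes a related peptide, is set beside them as a comparison. The bases come from the RefSeq annotation of TAIR10.1, at chr3:9047037-9047075 on the plus strand for CLE41, chr4:7662667-7662705 on the minus strand for CLE44 and chr2:14734492-14734530 on the plus strand for CLE42. Capitals mark bases that differ from CLE41.
CLE41: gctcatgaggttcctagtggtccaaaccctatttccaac
CLE44: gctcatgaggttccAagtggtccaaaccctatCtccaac
CLE42: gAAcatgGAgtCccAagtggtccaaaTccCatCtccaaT
CLE44 differed from CLE41 at 2 of 39 bases and at 0 residues. CLE42 differed at 10 bases and 2 residues.

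HB8 and ATHB15 share a site for miR165 and miR166 that none of the other 8 members holds in as close a form. The sites below are the windows of the spliced coding sequence with the fewest mismatches to the complement of miR166a-3p. They are shown because the site is a feature these members share with the remaining genes of their class. In the microRNAs capitals mark the seed, bases 2 to 8. In the sites they mark bases that do not match the complement of miR166a-3p.
miR166a-3p: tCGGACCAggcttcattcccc
miR165a-3p: tCGGACCAggcttcatccccc
HB8: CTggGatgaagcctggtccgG
ATHB15: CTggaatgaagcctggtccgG
REV: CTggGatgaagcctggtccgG
The site spans an intron in both members, within chr4:15866872-15866974 on the minus strand for HB8 and chr1:19412976-19413085 on the minus strand for ATHB15 (TAIR10.1). HB8 had 4 mismatches to the complement of miR166a-3p and 3 to that of miR165a-3p, and ATHB15 had 3 and 4. Among the other 8 members the closest window had 8 mismatches, in LBD4. The 9 MIR165 and MIR166 loci were listed at 0 in all 6 libraries, so the table holds no measure of these microRNAs.

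The values are FPKM, fragments per kilobase of gene scaled to the library's total, so levels of different genes are per length. The scaling total recovered from the steps of the values was 47386000 to 51013000 in the WT_V libraries and 40308000 to 46467000 in the WT libraries. The titles number 3 replicates per genotype, whereas the series design states that there were none, so the p-values reflect no more than library-to-library spread, and that spread may be technical. Counts of library pairs within a set differed by 3.25 to 3.50 times the variance of counting alone, so no library was counted as a copy of another. GAMMA-VPE (AT4G32940), the gene named as mutated, measured 328.1, 328.1 and 325.4 FPKM in WT_V libraries and 163.1, 164.4 and 162.7 FPKM in WT libraries, a ratio of means of 2.002 (log2 difference 0.997, limma adjusted p = 2.48e-12). The transcript was thus higher in the set taken as the mutant, which does not bear out that assignment. With no allele given, its level cannot decide which set carries the mutation.

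Of the 10 cambium regulators, 8 were higher in the libraries labelled WT_V, 0 were lower and 2 (CLE44 and MOL1) did not pass the test. The increases were 1.22-fold to 1.99-fold in mean FPKM, with WOX4, LBD4 and HB8 at the upper end. The same 8 genes were those whose 3 WT_V values all lay above the 3 WT values. The test was limma on log2(FPKM + 1) with Benjamini-Hochberg adjustment at 0.05 over 19144 genes with a mean of at least 1 FPKM, and all 10 members passed that filter. Of the tested genes 76% were called by it, with 51.9% higher and 24.1% lower in WT_V. By the criterion of sets that do not overlap, 53.1% of tested genes were higher and 24.4% lower. The median log2 difference was 0.35 for the members and 0.17 for all tested genes, so a general shift between the sets lies under every value below. With median-of-ratios scaling the median of all genes was -0.01 and that of the members 0.17. With quantile normalization the medians were -0.08 for all genes and 0.11 for the members. Of the called genes 68.3% were higher in WT_V on the deposited scale, 48.7% under median-of-ratios scaling and 40.6% after quantile normalization.

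Under all 3 scalings 5 of the 10 members were called higher in WT_V, namely CLE41, PXY, WOX4, HB8 and ATHB15. Of all tested genes 25.6% were called higher under all 3 scalings and 22.9% lower. ANT, LBD4 and WOX14 were called higher on the deposited scale but not under every scaling, and their values are given with each gene below. In bulk RNA of a whole stem, fewer cells of a type and less RNA per cell cannot be told apart.

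**Figure D1:**
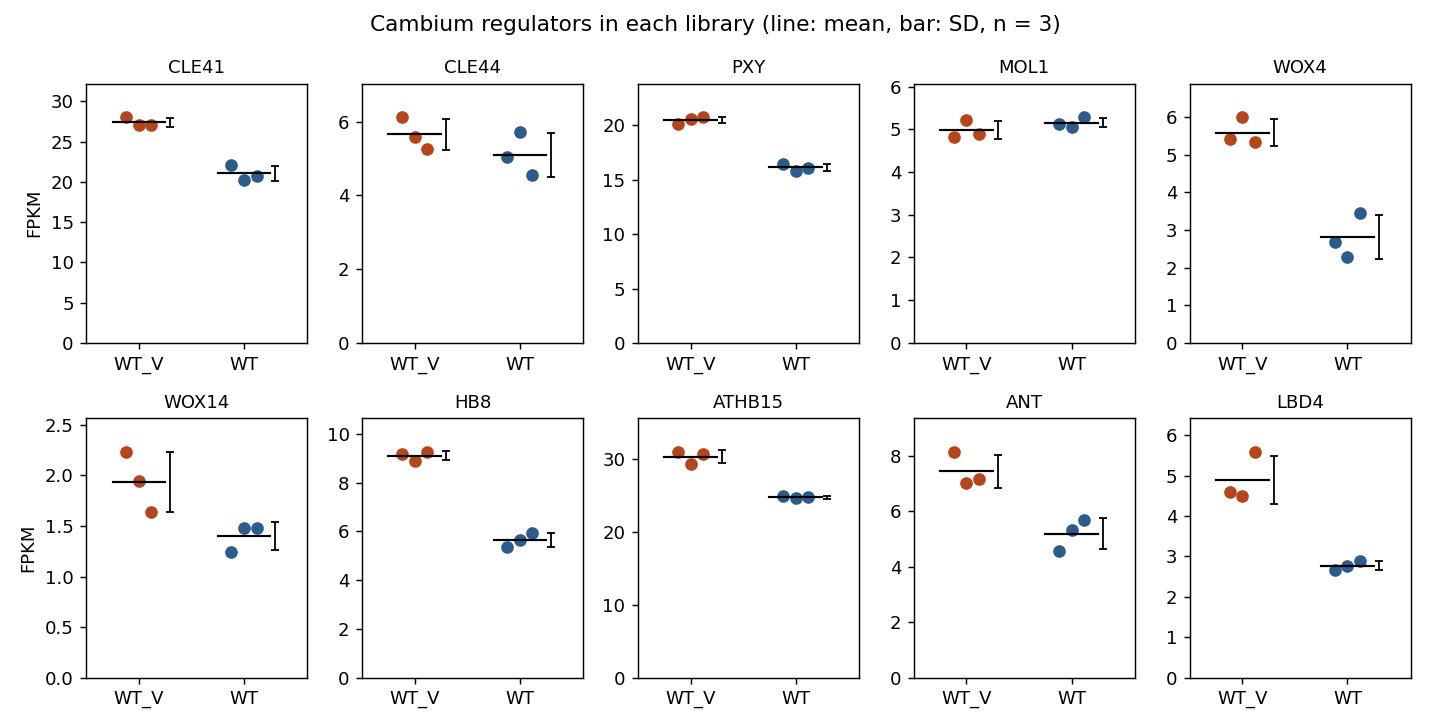
FPKM (vertical axes, from 0) of the 10 cambium regulators in each library, with WT_V libraries at the left and WT libraries at the right of each panel. Points are libraries, lines are means and bars are SDs of 3 libraries. The sets overlap for CLE44 and MOL1 and lie apart for the other 8 genes.

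Marker genes of other tissues also differed between the sets. Their lists were chosen with earlier results of these data known, and the calls are on the deposited scale. On that scale 51.9% of all tested genes were called higher and 24.1% lower. All 12 seed markers were higher in WT_V, at a summed level of 15580 to 15840 FPKM, against 0.309 to 0.487 FPKM in WT, and 10 of the 12 were listed at 0 in every WT library. Summed flower markers (9 genes, 7 of 7 tested called higher) measured 125.6 to 131.0 FPKM in WT_V and 30.0 to 33.1 FPKM in WT. The flower marker AMS, below the filter and not tested, went the other way. It measured 0.268, 0.445 and 0.334 FPKM in WT_V libraries and 0.459, 0.466 and 0.49 FPKM in WT libraries. Summed ovule and carpel markers (8 genes, 7 of 7 tested higher) measured 137.9 to 148.5 FPKM in WT_V and 79.7 to 84.7 FPKM in WT. Xylem markers (10 genes, 9 of 9 tested higher) measured 140.6 to 146.0 FPKM in WT_V and 50.3 to 52.6 FPKM in WT, and phloem markers (7 genes, 6 of 6 tested higher) 463.2 to 474.0 FPKM in WT_V and 213.5 to 216.7 FPKM in WT. Cell cycle genes (7 genes, all higher) summed to 51.4 to 52.8 FPKM in WT_V and 19.0 to 20.0 FPKM in WT. The meristem stem cell genes WUS and CLV3 were below the filter and not tested. WUS averaged 0.204 FPKM in WT_V and 0.0230 FPKM in WT. CLV3 averaged 0.258 FPKM in WT_V and 0.124 FPKM in WT, with overlapping sets. CLV1, which is not confined to stem cells, was called higher at 1.12 times its WT mean. Its log2 difference of 0.15 was just below the median of all tested genes, 0.17. ANT is known to be expressed in ovules and floral organs, and HB8 in the vascular strands of many organs. The part of these tissues in the differences below was not tested.

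CLE41 was the more abundant ligand gene in every library. It measured 27.99, 27.04 and 27.10 FPKM in WT_V libraries and 22.12, 20.23 and 20.75 FPKM in WT libraries. The sets lay apart, with a ratio of means of 1.30 and a log2 difference of 0.37 ± 0.043 (SE, n = 3 each, limma adjusted p = 1.66e-05). The difference was 0.17 with median-of-ratios scaling and 0.24 after quantile normalization, and its call held under both.

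CLE44 measured 6.12, 5.59 and 5.27 FPKM in WT_V libraries and 5.03, 5.71 and 4.55 FPKM in WT libraries. These ranges overlapped, because WT replicate 2 lay above the lower WT_V values. The log2 difference of 0.13 did not pass (95% interval -0.06 to 0.32, limma adjusted p = 0.192), and it turned to -0.04 under median-of-ratios scaling and became -0.35 after quantile normalization, where it was called lower (adjusted p = 0.00408). The CLE44 gene model shares 492 exon bases with AT4G13190 on the same strand, and reads there may have been left out by the authors' counting. If so, the level of CLE44 is understated. The recovered counts behind CLE44 were 367 to 443 in WT_V libraries and 274 to 390 in WT libraries.

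PXY, the TDIF receptor gene, measured 20.14, 20.63 and 20.73 FPKM in WT_V libraries and 16.42, 15.85 and 16.12 FPKM in WT libraries. The lowest WT_V library exceeded the highest WT library. The ratio of means was 1.27 and the log2 difference 0.33 ± 0.040 (SE, n = 3 each, limma adjusted p = 2.6e-05), which was 0.14 under each of the other scalings with the call unchanged. The values of PXY rested on 3666 to 3927 recovered counts in WT_V and 2467 to 2748 in WT, the most among the 6 members whose counts could be recovered in every library.

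MOL1 encodes a receptor-like kinase that restrains cambium activity. It measured 4.82, 5.22 and 4.89 FPKM in WT_V libraries and 5.13, 5.05 and 5.28 FPKM in WT libraries. The sets overlapped, and the log2 difference was -0.04 (95% interval -0.19 to 0.10, limma adjusted p = 0.573). With both rescalings MOL1 was called lower in WT_V, at -0.21 under median-of-ratios scaling (adjusted p = 0.0152) and -0.53 after quantile normalization (adjusted p = 4.53e-05). It was the member with the lowest difference, below the median of all tested genes by 0.21 on the deposited scale.

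WOX4, the homeobox gene downstream of PXY, showed the greatest difference of the 10. It measured 5.42, 5.99 and 5.35 FPKM in WT_V libraries and 2.68, 2.28 and 3.44 FPKM in WT libraries. All WT_V values lay above the highest WT value, that of WT replicate 3. The ratio of means was 1.99 and the log2 difference 0.80 ± 0.108 (SE, n = 3 each, limma adjusted p = 5.14e-05). It was 0.64 with median-of-ratios scaling and 0.27 after quantile normalization (adjusted p = 0.0407).

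WOX14, a relative that acts together with WOX4 and has also been linked to gibberellin synthesis, was the least abundant member. It measured 2.23, 1.94 and 1.64 FPKM in WT_V libraries and 1.24, 1.48 and 1.48 FPKM in WT libraries. The sets were separated by a narrow gap, and the ratio of means was 1.38. The log2 difference of 0.29 ± 0.105 passed (SE, n = 3 each, limma adjusted p = 0.028), but the call ended without WT_V replicate 1 (adjusted p = 0.0986), without WT_V replicate 2 (adjusted p = 0.0619), without WT replicate 1 (adjusted p = 0.093), with no filter (adjusted p = 0.0684) and under median-of-ratios scaling (adjusted p = 0.181). With quantile normalization it reversed to -0.40 (adjusted p = 0.00588).

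HB8, which marks cells set aside to become vascular tissue, measured 9.17, 8.89 and 9.25 FPKM in WT_V libraries and 5.38, 5.63 and 5.92 FPKM in WT libraries. The sets were well apart and each was tight. The ratio of means was 1.61, and the log2 difference was 0.61 ± 0.061 (SE, n = 3 each, limma adjusted p = 4.96e-06), or 0.43 with median-of-ratios scaling and 0.22 after quantile normalization.

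ATHB15, also called CORONA, was the most abundant member. It measured 30.97, 29.32 and 30.72 FPKM in WT_V libraries and 25.02, 24.63 and 24.75 FPKM in WT libraries. Although the sets did not overlap, the ratio of means was 1.22. The log2 difference was 0.28 ± 0.036 (SE, n = 3 each, limma adjusted p = 3.82e-05), and it shrank to 0.09 with median-of-ratios scaling, where it passed narrowly (adjusted p = 0.0484).

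The other genes of the class, all of which carry the miR166 site in these reference sequences, were higher in WT_V too. REV, which promotes interfascicular fibre and vascular development, measured 21.4 ± 0.205 FPKM in WT_V and 11.9 ± 0.550 FPKM in WT (SD, n = 3). PHV measured 31.1 ± 0.841 FPKM in WT_V and 20.2 ± 0.707 FPKM in WT, and PHB 21.6 ± 0.656 FPKM in WT_V and 14.9 ± 0.356 FPKM in WT. Their calls held under all 3 scalings. In ratio of means the class ran from 1.22 for ATHB15 through 1.45 for PHB, 1.54 for PHV and 1.61 for HB8 to 1.81 for REV. PHB and PHV are close relatives, and how the authors treated reads that match both is not given in the sources used here.

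ANT, an AP2-domain transcription factor gene that promotes cell division in organ primordia, ovules and cambium, measured 8.13, 7.01 and 7.18 FPKM in WT_V libraries and 4.57, 5.32 and 5.68 FPKM in WT libraries. The sets did not overlap. The ratio of means was 1.43 and the log2 difference 0.45 ± 0.085 (SE, n = 3 each, limma adjusted p = 0.000626). It was 0.28 with median-of-ratios scaling and 0.02 after quantile normalization, where the call ended (adjusted p = 0.856).

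LBD4, which marks the border of phloem and procambium and acts downstream of PXY, measured 4.61, 4.50 and 5.58 FPKM in WT_V libraries and 2.66, 2.77 and 2.88 FPKM in WT libraries. The WT libraries were close together and all lay below the WT_V libraries. The ratio of means was 1.77 and the log2 difference 0.64 ± 0.088 (SE, n = 3 each, limma adjusted p = 5.89e-05). It was 0.48 with median-of-ratios scaling and 0.09 after quantile normalization, where the call ended (adjusted p = 0.413).

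**Figure D2:**
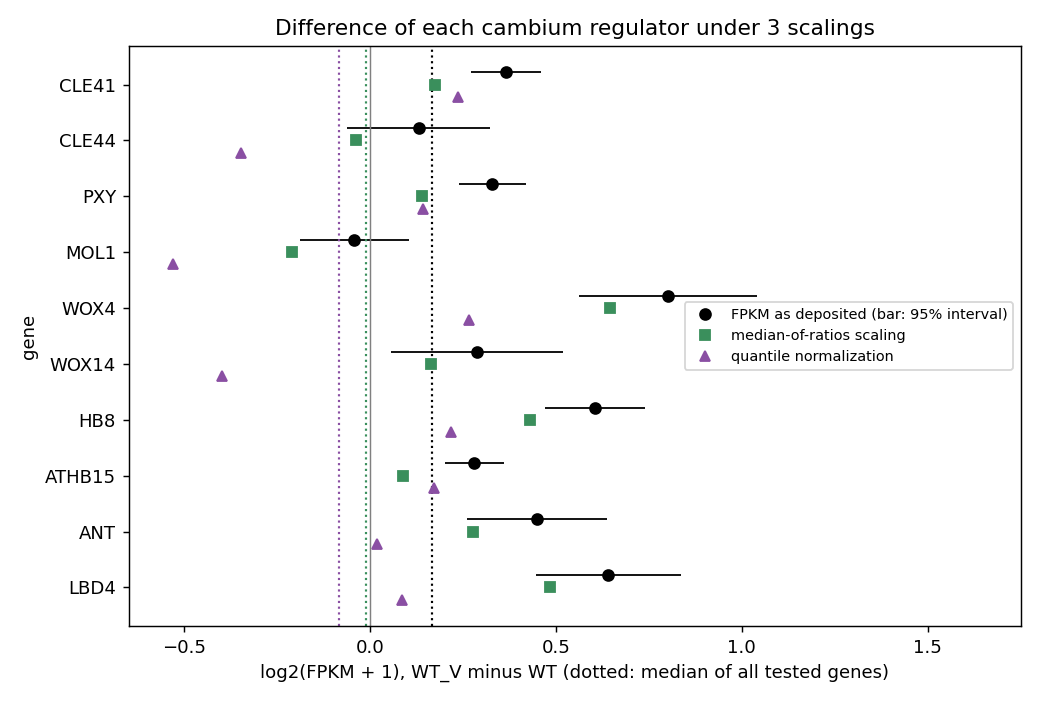
Difference of log2(FPKM + 1) between WT_V and WT (horizontal axis) for each cambium regulator (rows) on the deposited scale, with its 95% interval, and under 2 other scalings. Dotted lines are the medians of all tested genes. Values move to the left under both rescalings, and CLE41, PXY, WOX4, HB8 and ATHB15 stay above 0 and called under all 3.

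The order of levels was similar in both sets. In WT_V it ran ATHB15, CLE41, PXY, HB8, ANT, CLE44, WOX4, MOL1, LBD4 and WOX14, with means from 30.3 to 1.94 FPKM. Only CLE44 with WOX4, and MOL1 with LBD4, overlapped as neighbours there. In WT ATHB15, CLE41, PXY, HB8 and ANT again came first by mean and LBD4 and WOX14 last, with means from 24.8 to 1.40 FPKM. Between them came MOL1, CLE44 and WOX4, in that order. HB8, ANT, MOL1 and CLE44 overlapped from one to the next in WT, as did WOX4 and LBD4. HB8 and ANT were set apart from MOL1 and CLE44 in WT_V, and WOX4 was level with CLE44 there, while in WT the lowest CLE44 value (4.55 FPKM) was above the highest WOX4 value (3.44 FPKM).

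Ratios of members within a library are not altered by a single scaling factor for that library, and 5 pairs were compared. HB8 stood at 0.296, 0.303 and 0.301 of ATHB15 in WT_V libraries and at 0.215, 0.229 and 0.239 in WT libraries, a log2 difference of 0.40. WOX4 stood at 0.269, 0.290 and 0.258 of PXY in WT_V libraries and at 0.163, 0.144 and 0.213 in WT libraries, a log2 difference of 0.67. In both pairs the sets lay apart on the deposited scale. These ratios carry no pseudocount. As log2(FPKM + 1), the deposited differences were 0.61 for HB8 and 0.28 for ATHB15, and 0.80 for WOX4 and 0.33 for PXY. Quantile normalization does not keep such ratios. After it, the log2(FPKM + 1) differences of the pair members were closer, at 0.22 for HB8 and 0.17 for ATHB15. For WOX4 and PXY they were 0.27 and 0.14.

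WOX4 was 2.43, 3.08 and 3.27 times WOX14 in WT_V libraries and 2.16, 1.54 and 2.32 times in WT libraries, with a log2 difference of 0.55 and a narrow gap between the sets. CLE41 was 4.58, 4.84 and 5.14 times CLE44 in WT_V libraries and 4.40, 3.54 and 4.56 times in WT libraries. The log2 difference of 0.23 between the sets fell to 0.11 without WT replicate 2. If reads on the exon bases that CLE44 shares with AT4G13190 were left out, the size of the CLE41/CLE44 ratios is overstated. For each of these 4 pairs an exact permutation test, two-sided, returned p = 0.1, the smallest that 3 against 3 libraries allow, and 0.125 after adjustment over the 5 pairs, so no pair could pass at 0.05.

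The last pair sets a ligand gene beside its receptor gene. CLE41 was 1.39, 1.31 and 1.31 times PXY in WT_V libraries and 1.35, 1.28 and 1.29 times in WT libraries, with overlapping sets, a log2 difference of 0.04 and an exact two-sided permutation p of 0.5. The means of the log2 ratio were 0.42 ± 0.050 in WT_V and 0.38 ± 0.042 in WT (SD, n = 3).

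**Figure D3:**
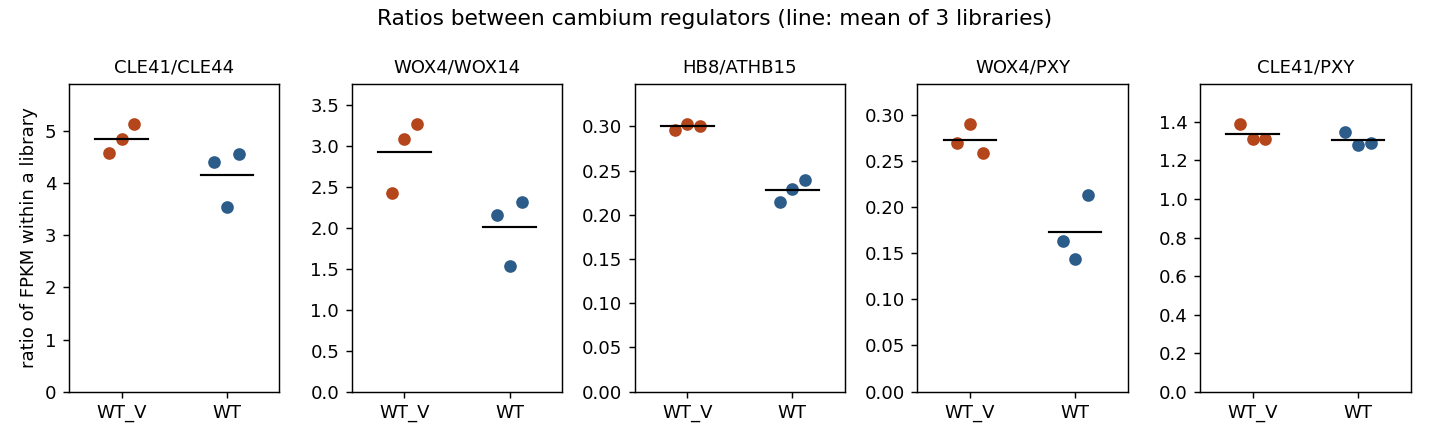
Ratio of FPKM within each library (vertical axes, from 0) for 5 pairs of cambium regulators, with WT_V libraries left and WT libraries right. Lines are means of 3 libraries. HB8/ATHB15 and WOX4/PXY are separated between the sets, and CLE41/PXY overlaps.

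Other genes of the cambium pathway were described by 3 lists chosen by role, with earlier results of these data known. The lists held 62 genes in all, of which 53 passed the filter. Of these 35 were called higher, 5 lower and 13 did not pass. Their median log2 difference was 0.40. This stands beside 51.9% higher and 24.1% lower among all tested genes. Under all 3 scalings 18 were called higher and 4 lower, beside 25.6% higher and 22.9% lower among all tested genes.

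In the list of TDIF and receptor kinase signalling, 6 of 10 tested genes were higher, 2 lower and 2 did not pass (median log2 difference 0.29). The greatest difference was in ERL1, an ERECTA-family receptor kinase gene, at 2.28 ± 0.125 FPKM in WT_V and 0.573 ± 0.104 FPKM in WT (SD, n = 3). Its relative ERL2 measured 3.92 ± 0.400 FPKM in WT_V and 1.93 ± 0.251 FPKM in WT, but its call ended after quantile normalization (adjusted p = 0.27). CLE42 did not pass, at 1.56, 1.14 and 0.741 FPKM in WT_V libraries and 1.14, 1.69 and 1.58 FPKM in WT libraries. PXL1 and PXL2, the closest relatives of PXY, averaged 0.0321 and 0.266 FPKM in WT_V, and 0.0287 and 0.154 FPKM in WT, and were not tested.

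The lower genes of this list were BES1 and BIN2. BES1 encodes a transcription factor of brassinosteroid signalling that promotes xylem differentiation when TDIF signalling is weak. It measured 132.2, 134.3 and 133.5 FPKM in WT_V libraries and 218.5, 215.9 and 229.9 FPKM in WT libraries. The sets were far apart, with a ratio of means of 0.602 and a log2 difference of -0.73 ± 0.025 (SE, n = 3 each, limma adjusted p = 7.82e-10) that was called lower under all 3 scalings. BZR1, its close relative, was called higher on the deposited scale (log2 difference 0.18, limma adjusted p = 0.00349) and under neither rescaling. BIN2, a kinase that interacts with PXY and acts on BES1, measured 90.8 ± 1.49 FPKM in WT_V and 99.28 ± 2.203 FPKM in WT (SD, n = 3), and after quantile normalization it no longer passed (adjusted p = 0.065).

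BES1 binds short elements in promoters, so the window from 250 bases before to 50 after the annotated start of each member was searched on both strands for CGTGTG or CGTGCG. A match was found in 1 of 10 member windows, that of WOX4, and in 8.19% of 27443 protein-coding promoters. The WOX4 window held 2 matches, and the share of all promoters with 2 or more was not computed. The WOX4 window, chr1:17238136-17238435 on the minus strand of TAIR10.1, is printed because WOX4 had the greatest difference. Capitals mark the matches, which begin at positions -186 and -153 from the gene start and read as CGTGTG on the other strand.
WOX4: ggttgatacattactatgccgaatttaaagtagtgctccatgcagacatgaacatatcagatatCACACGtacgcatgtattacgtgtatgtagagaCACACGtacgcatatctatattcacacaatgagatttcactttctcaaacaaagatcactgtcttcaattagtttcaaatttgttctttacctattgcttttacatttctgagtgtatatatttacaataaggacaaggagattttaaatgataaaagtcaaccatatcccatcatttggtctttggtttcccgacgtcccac
The E-box CANNTG, which can overlap those elements, was found in 9 of 10 member windows and in 61.7% of all. The auxin response element TGTCTC was found in 3 of 10 (WOX4, CLE44 and HB8) and in 14.2% of all, and TGTCGG in 2 of 10 (CLE41 and HB8) and in 5.12% of all. A match describes letters in the window and not a bound site.

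Of 25 tested genes among other cambium and vascular transcription regulators, 16 were higher, 2 lower and 7 did not pass (median 0.42). The greatest differences were in the LOB domain genes LBD18 and LBD1, relatives of LBD4, and in SMXL5, which promotes phloem formation. LBD18 measured 3.18, 3.39 and 3.25 FPKM in WT_V libraries and 0.225, 0.032 and 0.055 FPKM in WT libraries. LBD1 measured 8.67 ± 0.0746 FPKM in WT_V and 2.75 ± 0.193 FPKM in WT, and SMXL5 7.69 ± 0.350 FPKM in WT_V and 3.64 ± 0.165 FPKM in WT (SD, n = 3). All 3 were called under each scaling.

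The 2 lower genes of that list were STM and HAM1. STM, a KNOX homeobox gene that maintains shoot meristems, measured 55.7, 56.6 and 57.4 FPKM in WT_V libraries and 70.0, 62.4 and 65.1 FPKM in WT libraries (ratio of means 0.859, limma adjusted p = 0.000536). HAM1, a GRAS-domain gene, measured 16.9 ± 0.570 FPKM in WT_V and 19.1 ± 0.356 FPKM in WT (SD, n = 3). Both calls held under all 3 scalings. HAM4, of the same family as HAM1, was higher under all 3 (ratio of means 1.81), and KNAT1, a KNOX gene like STM, was higher on the deposited scale (log2 difference 0.095, limma adjusted p = 0.0143) and lower under median-of-ratios scaling (-0.10).

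Among auxin, cytokinin, gibberellin and D-type cyclin genes 13 of 18 tested were higher, 1 lower and 4 did not pass (median 0.39). MP, the auxin response factor gene known as an activator of HB8, measured 11.8, 12.5 and 12.5 FPKM in WT_V libraries and 5.17, 4.97 and 4.52 FPKM in WT libraries, a ratio of means of 2.51. CYCD3;1, a cyclin gene of cambial cells, measured 10.05 ± 0.788 FPKM in WT_V and 5.14 ± 0.237 FPKM in WT (SD, n = 3). The lower gene was ARR5, a cytokinin response regulator, at 9.79 ± 0.343 FPKM in WT_V and 11.1 ± 1.02 FPKM in WT. Its call was narrow (limma adjusted p = 0.0436) and held under both rescalings.

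**Figure D4:**
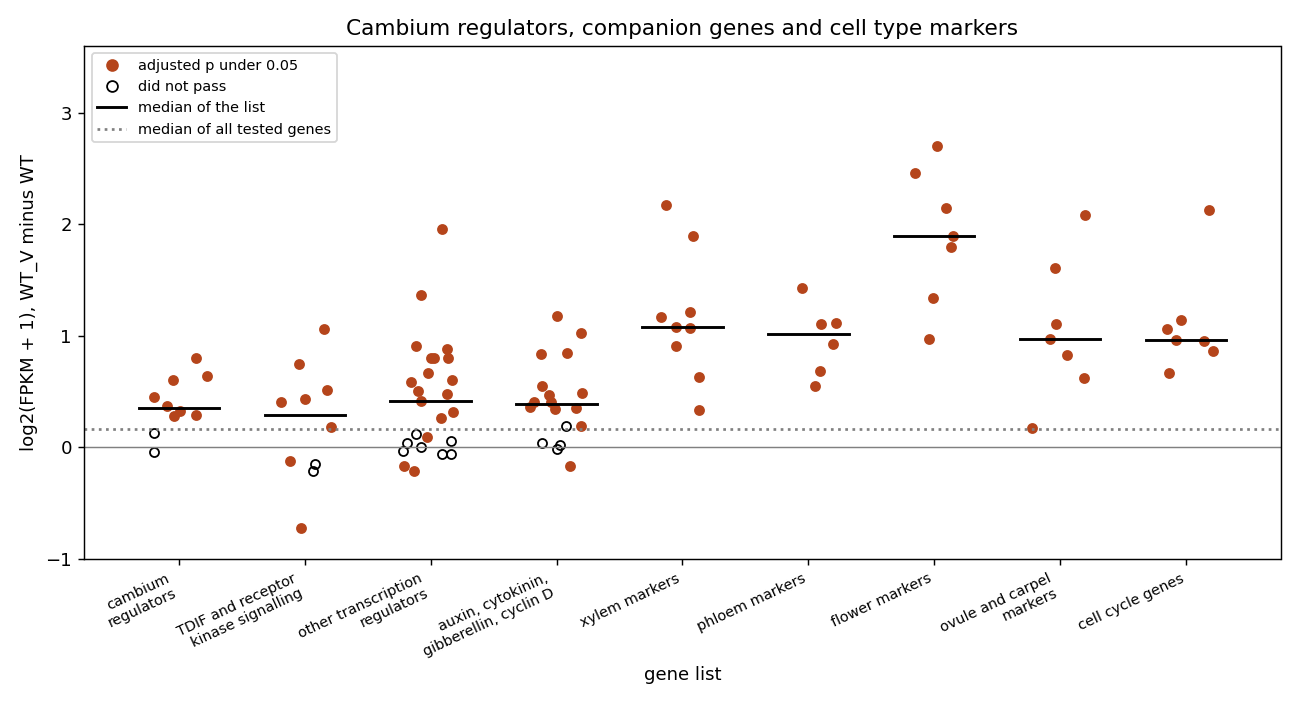
Difference of log2(FPKM + 1) between WT_V and WT (vertical axis) for tested genes of the cambium set, the 3 pathway lists and 5 marker lists (horizontal axis). Filled points passed the test, open points did not, bars are list medians and the dotted line is the median of all tested genes at 0.17. The medians of the cambium regulators and pathway lists lie between 0.29 and 0.42, below the medians of the xylem, phloem, flower, ovule and carpel, and cell cycle lists.

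The likeness of profiles was measured as the Euclidean distance between log2(FPKM + 1) values over the 6 libraries, each centred on its own mean, among the members and the tested pathway genes (62 other genes for each member). HB8 was closest to PHV (distance 0.06), and PXY and CLE41 were both closest to ACL5, a thermospermine synthase gene of xylem vessels (0.05 and 0.10). ATHB15 was closest to PXY (0.10), WOX4 to HAM4 (0.27) and LBD4 to PHV (0.16). WOX14 was closest to ARR7 (0.21), ANT to WAT1 (0.20), CLE44 to KAN1 (0.16) and MOL1 to ERF018 (0.06). The 6 points form 2 sets, so this distance mostly compares the size of the difference between them.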

How the data were processed

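Per the submitters' processing notes, Bowtie2 2.2.3, TopHat2 2.0.12 and HTSeq 0.6.1 were used. The authors deposited 1 table of FPKM. Not given in the sources used here are the build, annotation, strand setting and handling of multiply matching reads, and the table holds no coordinates. Names, exon lengths and sequences came from RefSeq TAIR10.1 by locus (32548 identifiers matched, 1936 did not). With its exon lengths, 99.18 to 99.42% of single-transcript values of up to 400 counts were whole within 0.05 counts. Recovered counts are printed only for members that came out whole, within 0.1, in all 6 libraries.

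Differences are WT_V minus WT, fitted over all genes in R 4.3.3 (limma 3.58.1, variance trend on). The pseudocount of 1 understates differences of low genes. Alternatives were pseudocounts of 0.1 and 5, quantile and median-of-ratios scaling, no filter, a filter at a mean of 5 FPKM, no trend, a replicate block and each library left out. Members, 3 pathway lists and 7 marker lists were chosen with earlier results of these data known. Named pathway genes were the 3 with the greatest difference in each list, every called lower gene and the nearest profiles. A gene that this rule names is not reported here. Beyond that rule REV, PHB and PHV, as the class of HB8 and ATHB15, and CLE42, PXL1, PXL2, BZR1, HAM4 and KNAT1, as relatives, were named after values were seen. So was the flower marker AMS. Figures used matplotlib 3.10.9 in Python 3.11.15.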

Additional observations from a re-analysis of the deposited data

How the results depend on the processing

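Over the whole table, median-of-ratios scaling gave 6850 genes higher and 7213 lower in WT_V. There, 1 cambium member was lower (MOL1), 14 pathway genes were lower, and the members' median was 0.168. With quantile normalization the counts were 5777 higher and 8438 lower, 5 members higher and 3 lower (CLE44, MOL1 and WOX14), and 20 pathway genes higher and 13 lower, with a members' median of 0.114. CLE44 reversed to -0.039 and -0.347 under these scalings, and WOX14 to -0.399 with quantile normalization. A minimum mean of 5 FPKM left 7 members (WOX4, WOX14 and LBD4 were not tested). Of these 5 were higher, beside 48.8% of all genes tested with that filter. A pseudocount of 5 gave a members' median of 0.28. With no filter 45.3% of 34484 genes were called, and 33.3% were called higher. In that fit 7 members were higher, and the median was 0.034 over all genes and 0.347 over the members. The causes were not tested, apart from the smaller number of genes under the stricter filter.

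Leaving out each library gave 7 to 8 members higher and 0 lower, 33 to 37 pathway genes higher and 4 to 5 lower, and a members' median of 0.328 to 0.367. In the same fits 48.7 to 51.1% of all tested genes were higher and 22.7 to 23.1% lower. Deviations of same-numbered libraries had r = -0.016, -0.016 and 0.014, and not every library correlated best with its own number. The labels do not say whether same-numbered libraries were prepared together, and these values cannot decide it. With the replicate block 9868 genes of the table were higher and 4609 lower, 8 members were higher, and no member's call changed. Of the members with counts recovered in every library, LBD4 had the fewest, 273 to 318 in WT_V and 129 to 155 in WT. Among those members its precision is the most limited by depth. WOX14, whose counts did not come out whole in every library, had lower FPKM and may be limited more.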
